A study of Homo sapiens with 34 samples.

Results

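The genes that decide whether a cell leaves G1 were followed through the histone marks of KELLY, a human neuroblastoma cell line in long use whose MYCN gene is amplified. They were the CDK inhibitors CDKN1A, CDKN1B, CDKN1C, CDKN2A, CDKN2B, CDKN2C and CDKN2D, the kinases CDK4 and CDK6 and the cyclin CCND1, chosen by name, 10 of the 19970 protein-coding genes of the GENCODE release 44 annotation of hg38. The cells carried a doxycycline-inducible shRNA to RUNX1T1, a transcriptional co-repressor, and were treated for 72 h with DMSO or doxycycline, so that both groups held the same construct. ChIP-seq of H3K4me1, H3K4me2, H3K4me3, H3K27ac and H3K27me3 gave 3 libraries per mark and treatment and 30 peak lists. These lists held no library from cells treated with doxycycline without the shRNA, so that effects of the drug and of the knockdown cannot be told apart.

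D-type cyclins activate CDK4 and CDK6, which phosphorylate RB1 and release the E2F factors that drive entry into S phase. The INK4 inhibitors, encoded by the CDKN2 genes, bind CDK4 and CDK6 and keep the cyclin off, whereas the CIP/KIP inhibitors, encoded by the CDKN1 genes, bind cyclin-CDK complexes more broadly. H3K4me3 and H3K27ac mark active promoters, H3K4me1 marks enhancers and the flanks of promoters, and H3K27me3 is laid down by Polycomb complexes at silent genes. In neuroblastoma CCND1 and CDK4 are known for high expression or amplification, and CDKN2A is a well known Polycomb target.

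The promoter sequences of the start sites on which the results turn are given from RefSeq on GRCh38.p14, each 5′ to 3′ on the strand of its gene. Each is limited to the longest stretch before the start of transcription that no annotated exon touches. The 3 promoters of the INK4 locus are shown because they carried different marks, CDKN1B because its acetylated domain had a different width in the 2 treatments, and CDK4 and CDKN2C because they hold E-boxes. Capitals mark CACGTG, the E-box bound by MYC and MYCN, and CCAAT, the box bound by NF-Y. The first sequence lies before the p16 start of CDKN2A at chr9:21974867-21975107 (minus strand), the second before the ARF start of CDKN2A at chr9:21995325-21995481 (minus strand) and the third before the CDKN2B start at chr9:22009306-22009555 (minus strand). The others lie at chr12:12717118-12717367 (plus strand), chr12:57752448-57752560 (minus strand) and chr1:50969995-50970244 (plus strand).
CDKN2A, p16 start: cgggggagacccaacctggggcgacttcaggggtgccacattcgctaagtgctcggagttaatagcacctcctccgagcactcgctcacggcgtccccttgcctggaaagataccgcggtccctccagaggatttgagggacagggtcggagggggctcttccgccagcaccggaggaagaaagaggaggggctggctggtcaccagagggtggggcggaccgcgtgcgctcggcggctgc
CDKN2A, ARF start: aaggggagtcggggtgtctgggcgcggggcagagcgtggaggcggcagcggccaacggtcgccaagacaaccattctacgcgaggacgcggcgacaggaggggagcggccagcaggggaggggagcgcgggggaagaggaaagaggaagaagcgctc
CDKN2B: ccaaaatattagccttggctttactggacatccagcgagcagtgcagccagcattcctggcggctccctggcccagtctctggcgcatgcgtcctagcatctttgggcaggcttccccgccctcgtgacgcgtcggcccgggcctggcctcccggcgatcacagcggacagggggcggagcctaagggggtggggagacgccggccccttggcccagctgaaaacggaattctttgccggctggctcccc
CDKN1B: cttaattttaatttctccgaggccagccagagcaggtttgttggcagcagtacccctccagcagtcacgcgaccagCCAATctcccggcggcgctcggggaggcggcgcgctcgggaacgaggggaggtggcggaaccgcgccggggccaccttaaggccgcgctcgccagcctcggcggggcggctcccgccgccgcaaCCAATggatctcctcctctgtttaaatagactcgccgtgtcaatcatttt
CDK4: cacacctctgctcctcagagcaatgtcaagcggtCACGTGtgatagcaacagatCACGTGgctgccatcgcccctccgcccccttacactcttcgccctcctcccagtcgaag
CDKN2C: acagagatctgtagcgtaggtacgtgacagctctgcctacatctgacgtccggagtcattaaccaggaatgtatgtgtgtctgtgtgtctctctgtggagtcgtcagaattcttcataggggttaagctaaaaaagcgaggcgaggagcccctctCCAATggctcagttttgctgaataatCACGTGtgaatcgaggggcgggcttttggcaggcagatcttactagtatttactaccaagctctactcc
Motifs were searched on both strands in the window from 250 bases before to 50 after each start. The table held 12 promoters of 8 of the genes, and CDKN1C and CCND1 were not in it. CACGTG occurred in promoters of CDK4, CDK6 and CDKN2C and in 7.27% of all 34961 promoters. The CDK4 promoter held 3 copies, of which 2 lie in the stretch printed. CCAAT occurred in promoters of CDKN1B, CDKN2C and CDKN2D and in 34.6% of all promoters. None of the 12 held the E2F sites TTTGGCGC or TTTCCCGC, which stood in 0.655% and 1.64% of all promoters. GC content of the 12 ran from 46.3% to 78.0% beside a median of 58.7% over all promoters.

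The calling depth, the smaller of the ChIP and input read totals to which the peak caller scaled, was 71.9 to 81.1 M reads with DMSO and 57.0 to 63.4 M with doxycycline. Depth and treatment therefore cannot be told apart. The fragment length estimated for H3K27me3 was 256 to 280 bp in 3 libraries (DMSO 1, doxycycline 1 and doxycycline 2) and 105 to 112 bp in the other 3, and H3K27me3 values are given by these kinds below. The neuroblast marker genes HAND2, GATA3, ISL1, TH and DBH had H3K4me3 and H3K27ac at a start site in all 6 lists. In contrast, PTPRC, ALB and CDH5 had neither mark in any list. MYOD1 had no H3K27ac but had H3K4me3 in 5 of the 6 lists. RUNX1T1, the targeted gene, had H3K4me3 and H3K27ac in all 6 lists, which is no measure of its RNA. The labels do not say that replicates were separate cultures, so that p-values measure only the spread between these libraries, which may be technical.

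All 10 genes had H3K4me3 and H3K4me2 in each of the 6 lists within 1 kb of an annotated start, as did 71.9% and 71.8% of all genes. H3K27ac was present in all 6 lists at 8 of them, was absent from every list at CDKN2B and was called in 1 list, doxycycline 1, at CDKN1C, beside 64.2% of all genes with it in all 6. H3K27me3 was present in all 6 lists at CDKN2A and CDKN2B, in 4 at CDKN1C and in 1 at CDK4, and in none at the other 6, beside 20.1% of all genes with it in all 6 lists. H3K4me1 was called in all 6 lists at CDKN1A, CDKN1B, CDKN2C, CDKN2D, CDK4 and CCND1, in 5 at CDKN1C and CDKN2A, in 4 at CDK6 and in 3 at CDKN2B, beside 61.4% of all genes with it in all 6. The map of start sites therefore held 6 genes with H3K4me3 and H3K27ac in every list and H3K27me3 in none (CDKN1A, CDKN1B, CDKN2C, CDKN2D, CDK6 and CCND1), a state shared by 50.9% of all genes. CDKN2A, with the 3 marks in every list, shared its state with 3.58% of all genes. CDKN2B, with H3K4me3 and H3K27me3 but no H3K27ac, shared its state with 4.83%. These states pool all start windows of a gene, so that the marks need not stand at the same start.

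**Figure D1:**
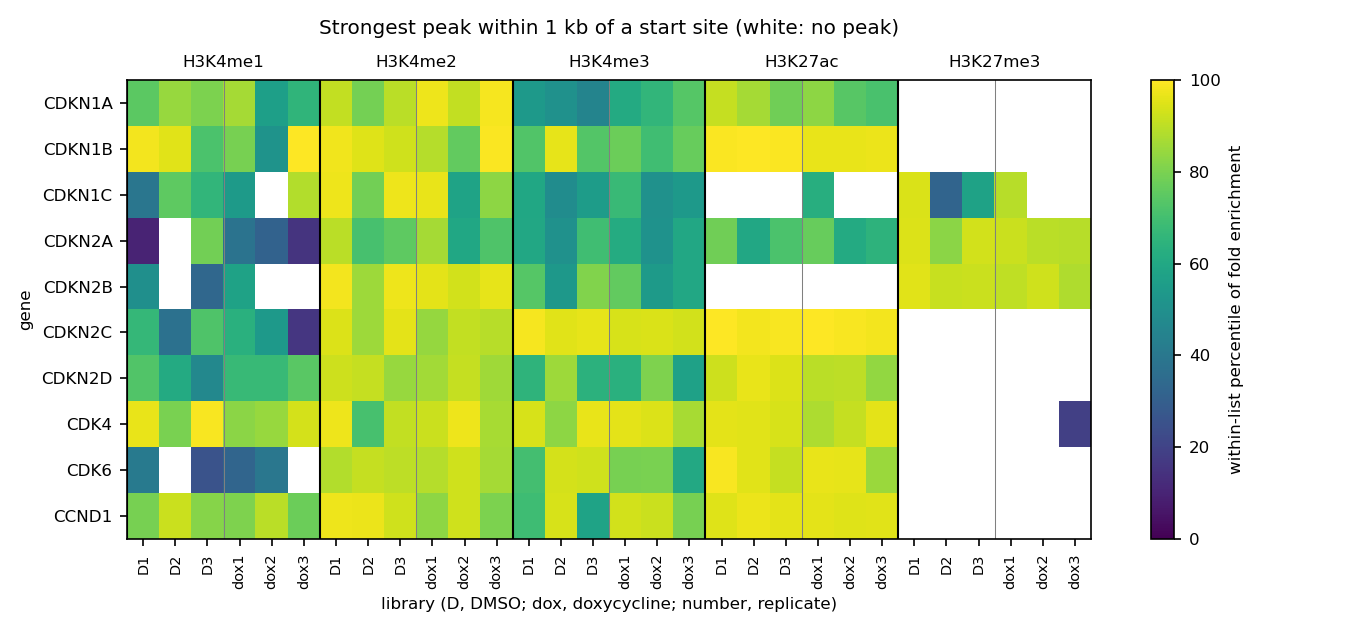
Strongest peak within 1 kb of a start site for each of the 10 genes (rows) in each of the 30 lists (columns, D for DMSO and dox for doxycycline), coloured by the percentile of its fold enrichment within the list, white where no peak was called. H3K27ac is absent at CDKN2B and present in 1 list at CDKN1C, and H3K27me3 is present in all 6 lists only at CDKN2A and CDKN2B.

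Start-site calls were then compared between treatments, asking whether any gene had a peak in all 3 libraries of 1 treatment and in none of the other. None of the 10 did for any mark. The share of all genes with a peak in all DMSO and no doxycycline libraries was 0.19% for H3K4me1, 0.0% for H3K4me2, 0.0751% for H3K4me3, 0.22% for H3K27ac and 0.0% for H3K27me3. The reverse held for 0.125%, 0.03%, 0.0551%, 0.11% and 0.19% of genes in the same order. The nearest to such a change was CDKN1C, whose H3K27me3 peak was called in 3 DMSO libraries and in 1 doxycycline library. A count of 0 of 10 lies near these shares.

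Peak strength was measured as the percentile of the fold enrichment of the strongest start-site peak within its own list, since fold enrichment itself moves with the depth and input of a library. A percentile is a rank, so it can also fall because other peaks of the list rank higher. Where the mark itself is lower, fewer cells with it and less of it per cell cannot be told apart in a bulk culture. Peak extent was the length covered by peaks in the gene body and 50 kb either side, compared as log2(bases + 500). Across all genes, limma called 0.0786% for H3K4me1 extent and 2.12% for H3K27ac extent (25 higher and 326 lower in doxycycline), and 0.0% in the other 8 fits. With each library centred on its median the H3K27ac extent calls were 258 higher and 419 lower. For strength, 6, 10, 10, 8 and 2 of the 10 genes could be fitted for H3K4me1, H3K4me2, H3K4me3, H3K27ac and H3K27me3, and for extent all 10 but for H3K27me3, where 5 passed the filter on covered length. None was called in these fits, and 4 gene values had an unadjusted p under 0.05 (CDKN1A H3K4me3 strength, CDKN1B and CDKN2D H3K27ac strength, and CDKN1C H3K27ac extent). Over all genes such a p was held by 1804 of 14349 for H3K4me3 strength, where it was 1 of 10 here, by 1644 of 12827 for H3K27ac strength (2 of 8 here) and by 2121 of 16570 for H3K27ac extent (1 of 10 here).

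At the INK4 locus on chromosome 9 the same genes carried different marks at different start sites. CDKN2A (ENSG00000147889, hg38 chr9:21967752-21995301, minus strand) encodes p16 from an inner start at 21974857 and ARF from an upstream start that lies within 1 kb of the start of the antisense RNA CDKN2B-AS1. CDKN2B (ENSG00000147883, chr9:22002903-22009305, minus strand) encodes p15. The ARF window carried H3K27ac in all 6 lists, with peaks of 2680, 2212 and 1935 bp in DMSO and 2457, 2500 and 2494 bp in doxycycline, and H3K4me3 peaks of 2552 to 3136 bp. The p16 window carried no H3K27ac in any list, and its H3K4me3 peak was shorter, at 941, 847 and 704 bp in DMSO and 1180, 958 and 758 bp in doxycycline. Acetylation at CDKN2A was thus found at the ARF start, which adjoins the antisense start, and not at the p16 start in either treatment.

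H3K27me3 lay over the p16 window in all 6 lists, with a fold enrichment of 3.39, 3.16 and 3.25 in DMSO and 3.03, 2.54 and 3.55 in doxycycline. It met the ARF window in 4 of 6 lists (DMSO 1, DMSO 3, doxycycline 1 and doxycycline 2), at a fold of 2.19 to 2.79 that was lower than at p16 in each of them. At CDKN2B the main start window carried H3K4me3 in all 6 lists, at 1293, 1353 and 1143 bp in DMSO and 1223, 1257 and 1064 bp in doxycycline, but neither H3K27ac nor H3K27me3. The H3K27me3 of CDKN2B stood at a second annotated start inside the gene (window chr9:22005271-22007271), which is not the start of a protein-coding transcript. These H3K27me3 calls were weak. At a q of 0.001 or less no start site of the 10 genes kept an H3K27me3 peak in all 3 libraries of a treatment.

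H3K27me3 within 50 kb of CDKN2A covered 30.2, 7.72 and 5.41 kb in DMSO and 30.9, 17.0 and 5.58 kb in doxycycline. The values ranged over the same span in both treatments, and limma called no difference (log2 difference 0.39, SE 0.86, adjusted p = 0.846). They moved with the fragment length estimate instead, at 17.0 to 30.9 kb in the 3 libraries with the long estimate and 5.41 to 7.72 kb in the 3 with the short one. The part of that estimate in the covered length was not tested. H3K27ac within 50 kb was 2.28 ± 0.377 kb in DMSO and 2.48 ± 0.0233 kb in doxycycline (SD, n = 3), the shortest coverage of the 10 genes, and the same ARF peak was counted for CDKN2A and CDKN2B because their windows overlap.

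**Figure D2:**
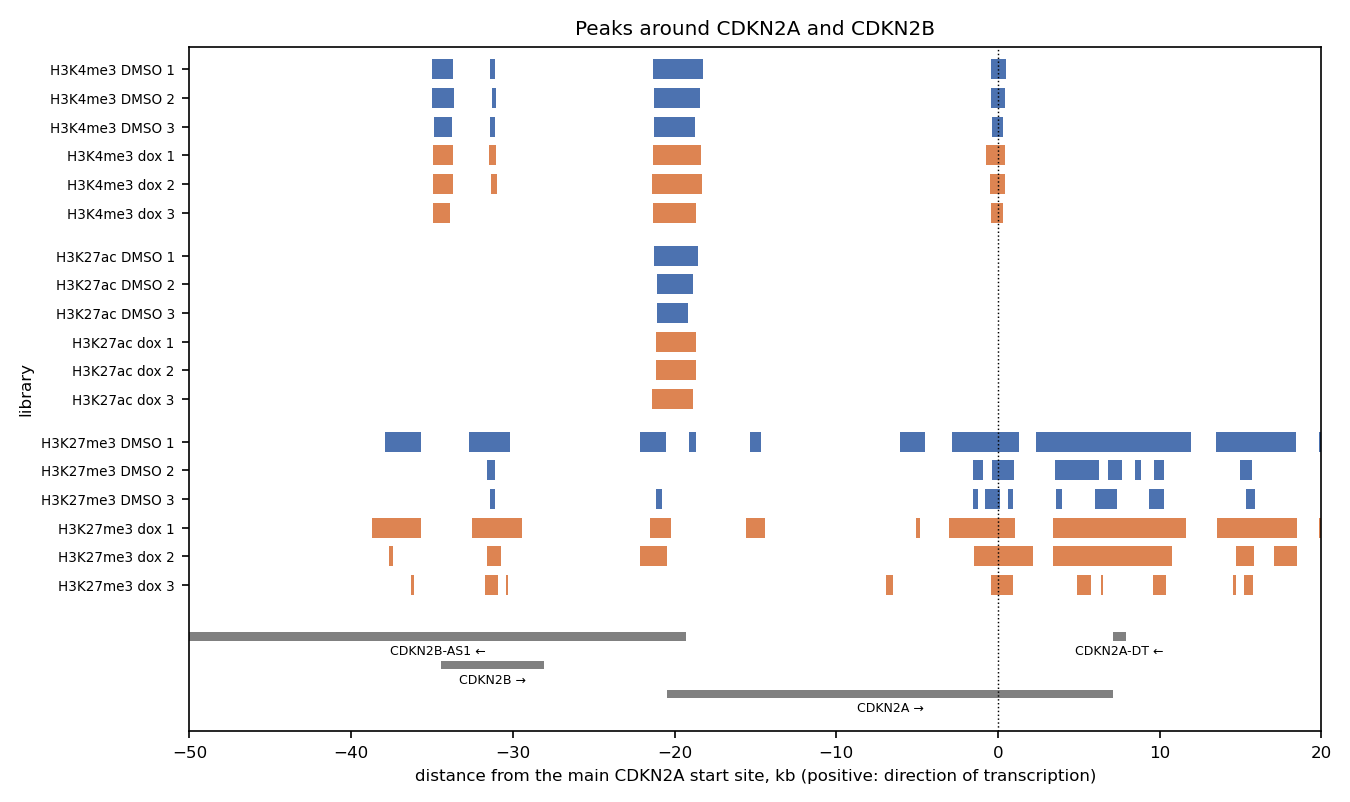
Peaks of H3K4me3, H3K27ac and H3K27me3 in each library (rows, blue for DMSO and orange for doxycycline) against the distance in kb from the p16 start site of CDKN2A, positive in the direction of its transcription, with genes in grey. H3K27ac appears only at the ARF start about 20 kb upstream, and the H3K27me3 blocks are long in DMSO 1, doxycycline 1 and doxycycline 2 and short in the other 3 libraries.

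The other INK4 genes had acetylated start sites without H3K27me3. CDKN2C (ENSG00000123080, chr1:50960745-50974634, plus strand), which encodes p18, had an H3K27ac start-site peak near the top of every list, at percentiles of 99.9, 98.4 and 98.9 in DMSO and 99.8, 99.1 and 98.3 in doxycycline. One of its start windows is shared with FAF1. Its H3K4me3 percentile was 98.6, 95.5 and 96.4 in DMSO and 94.0, 94.2 and 93.3 in doxycycline. Every doxycycline library lay below every DMSO library for H3K4me3, but the difference of -2.97 percentile points (SE 3.36) was not called (limma adjusted p = 0.76), and 9.19% of all genes showed the same order. The widest H3K27ac start-site peak was 12.7, 16.8 and 14.7 kb in DMSO and 4.0, 15.2 and 16.6 kb in doxycycline, so that 1 doxycycline library stood apart and the groups overlapped.

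CDKN2D (ENSG00000129355, chr19:10566460-10569059, minus strand), which encodes p19, had H3K27ac percentiles of 92.4, 96.5 and 94.6 in DMSO and 89.6, 89.9 and 83.9 in doxycycline. All doxycycline libraries were lower in percentile (difference of -6.70 percentile points, SE 2.40, limma adjusted p = 0.302, exact permutation p = 0.1, the smallest that 3 libraries against 3 allow). The fold enrichment behind this rank was 7.89, 9.13 and 6.0 in DMSO and 9.58, 8.61 and 5.36 in doxycycline, and the groups overlapped. CDKN2D and CDKN1B were the 2 of 8 genes tested with every doxycycline percentile lower, beside 12.3% of all genes. The median difference of the 8 was -2.69 beside -0.62 over all genes. In contrast, H3K27ac around CDKN2D covered more in doxycycline, at 9.70, 10.1 and 8.83 kb in DMSO and 14.5, 15.5 and 10.3 kb in doxycycline (log2 difference 0.46, SE 0.20, limma adjusted p = 0.401). The longer peaks lay away from the gene, at chr19:10543544-10547073 in ATG4D and chr19:10551907-10556422 over ATG4D and KRI1. The second of these measured 0, 621 and 1008 bp in DMSO and 4380, 4392 and 1152 bp in doxycycline, whereas peaks in the region over the CDKN2D start (chr19:10567991-10572907) covered 3511 to 4731 bp in all 6 lists.

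CDKN2D also stood out by its surroundings, where H3K27me3 covered 52.5, 43.6 and 37.1 kb in DMSO and 54.2, 53.8 and 41.8 kb in doxycycline, the longest of the 10 genes. No H3K27me3 peak met the gene. It lay in a gap of 31.3 kb (chr19:10542966-10574225) between a block at S1PR5, a sphingosine phosphate receptor gene, and a block at AP1M2, an epithelial adaptor subunit gene, 5.17 kb from CDKN2D. The covered length was 52.5 to 54.2 kb in the libraries with the long fragment estimate and 37.1 to 43.6 kb in the others, and limma called no difference between treatments (log2 difference 0.17, SE 0.30, limma adjusted p = 0.838).

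CDKN1A (ENSG00000124762, chr6:36676460-36687337, plus strand) encodes p21, which halts the cycle after DNA damage, and its main start window is shared with the lncRNA DINOL. Its H3K4me3 peak had the lowest mean percentile of the 10 genes in DMSO, at 54.2, 50.6 and 45.3, and stood at 61.0, 65.8 and 73.6 in doxycycline. All 3 doxycycline libraries were higher, by 16.77 percentile points with an SE of 6.45, but limma did not call it (unadjusted p = 0.0155, adjusted p = 0.293), and 7.63% of all genes showed this order. The fold enrichment behind it was 21.6, 20.34 and 12.3 in DMSO and 28.7, 32.13 and 21.86 in doxycycline, while the width was 2.83 to 2.90 kb and 2.63 to 2.86 kb. Ranked by pileup in place of fold enrichment the difference was -1.30 percentile points (limma adjusted p = 0.939), so that the direction depended on which value was ranked, for a reason that was not tested. H3K27ac at the same start went the other way in the means, from 91.1, 86.4 and 78.5 in DMSO to 83.2, 74.1 and 71.1 in doxycycline, with overlapping groups (difference of -9.20, SE 4.39, limma adjusted p = 0.409).

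**Figure D3:**
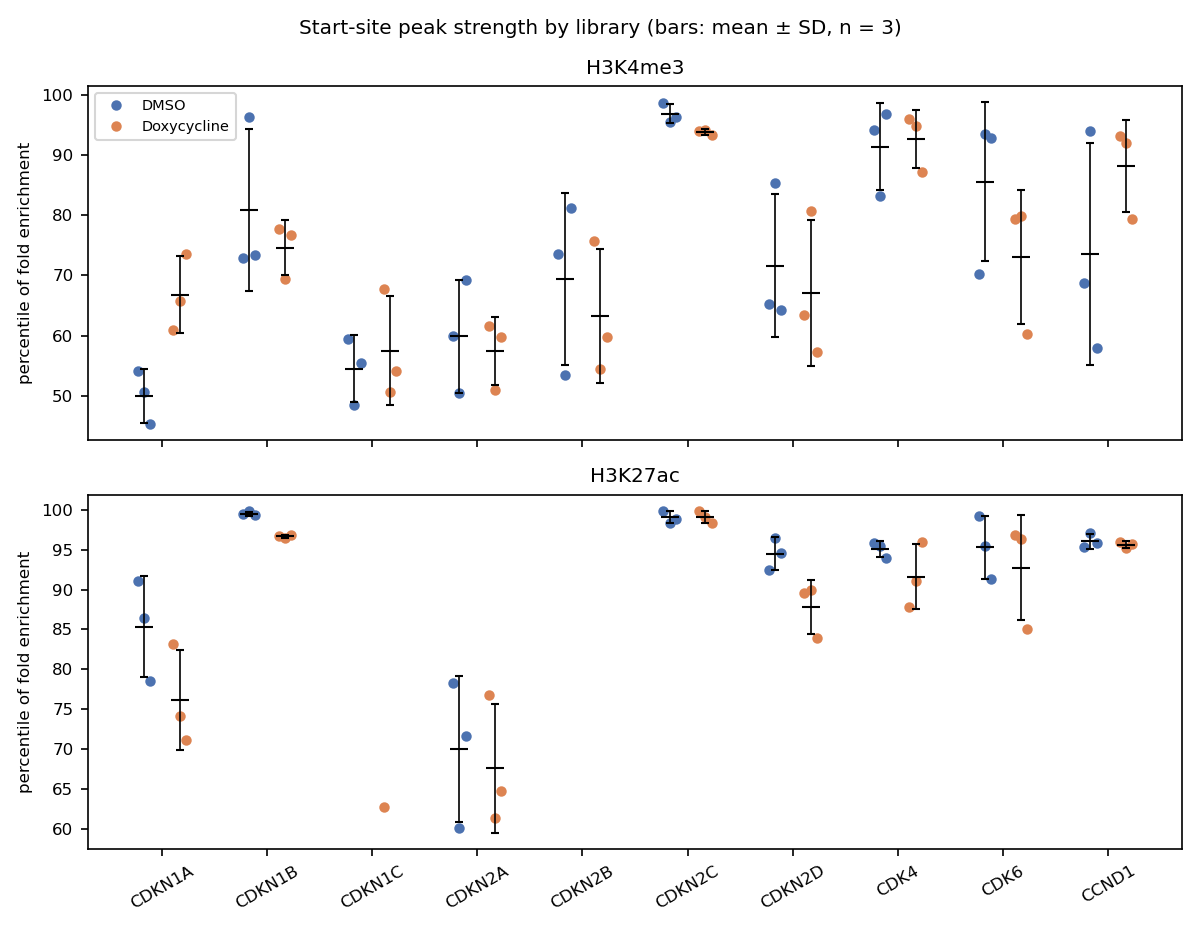
Within-list percentile of the fold enrichment of the strongest start-site peak (vertical axis) for each gene, with 1 point per library and bars for the mean ± SD of 3 libraries, for H3K4me3 (top) and H3K27ac (bottom). The doxycycline points of CDKN1A lie above the DMSO points for H3K4me3, and those of CDKN1B and CDKN2D lie below for H3K27ac.

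CDKN1B (ENSG00000111276, chr12:12685498-12722369, plus strand), which encodes p27, had the largest ratio between treatments in H3K27ac start-site width among the 8 genes with that mark in all 6 lists. A single H3K27ac peak ran over its main start at 12717368 in DMSO, with a width of 12.8, 12.8 and 11.8 kb. It reached from before that start to past the start of APOLD1, a neighbouring gene, and covered the lncRNA ENSG00000256658 between the 2 genes. In doxycycline the peak over the same start was 3.98, 4.68 and 3.15 kb wide. The mean width was 12.4 ± 0.585 kb in DMSO and 3.93 ± 0.765 kb in doxycycline (SD, n = 3), a ratio of 3.16, with an exact permutation p of 0.1, the smallest that 3 libraries against 3 allow. Over all start windows of a gene, every DMSO library was at least 2 times as wide as every doxycycline library at 28 of 12827 genes with H3K27ac in all 6 lists (0.218%), CDKN1B among them, and doxycycline was narrower without overlap at 6.49%. Of the 8 genes of the set that could be compared, CDKN1B alone showed either order.

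In doxycycline the former domain was broken into separate peaks. A peak of 3.90, 5.60 and 4.64 kb, with a fold enrichment of 22.98, 17.51 and 10.55, stood over its APOLD1 end in the 3 doxycycline libraries, 3.79, 1.29 and 3.33 kb from the peak over the CDKN1B start. In doxycycline 1 and 3 a further small peak, with a fold enrichment of 2.11 and 2.89, lay in this space, so that neighbouring peaks were closer together than these distances. The span common to the DMSO peaks (chr12:12715322-12727033, 11.7 kb) was covered to 73.6%, 86.6% and 67.8% in doxycycline. Joining peaks within 2.5 kb of each other gave 12.0 ± 1.06 kb in doxycycline and a difference of -0.47 kb from DMSO. The fold enrichment of the start peak was 13.39, 13.9 and 8.19 in DMSO and 13.75, 11.46 and 8.23 in doxycycline, and the groups overlapped. Its percentile was 99.5, 99.8 and 99.3 in DMSO and 96.7, 96.5 and 96.9 in doxycycline, without overlap (difference of -2.80, SE 0.63, unadjusted p = 0.00107, limma adjusted p = 0.167). In broad lists the peak caller gives the mean over the whole peak, so that this value and the width are not separate measures. By pileup the difference was -0.21 percentile points (limma adjusted p = 0.866).

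H3K4me3 did not show this difference at CDKN1B. It had a peak at the CDKN1B start and another near the APOLD1 start with a gap between them in all 6 lists, and its widest start-site peak was 4.21, 3.71 and 3.52 kb in DMSO and 3.86, 3.65 and 3.69 kb in doxycycline. The annotated gene body begins at 12685498, before the main start at 12717368, and overlaps GPR19, a protein-coding gene. Within this body H3K27ac covered 10.7, 10.5 and 10.4 kb in DMSO and 6.54, 6.97 and 5.07 kb in doxycycline. With 50 kb either side it covered 20.9 ± 1.93 kb and 16.4 ± 2.58 kb (SD, n = 3), lower without overlap (log2 difference -0.35, SE 0.20, limma adjusted p = 0.574), an order seen in 12.9% of all genes and in 1 of the 10. A smaller H3K27ac region in the gene body but upstream of the main start (chr12:12704097-12705151) was called in all 3 DMSO and no doxycycline libraries. Its fold was 2.36 to 2.77.

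**Figure D4:**
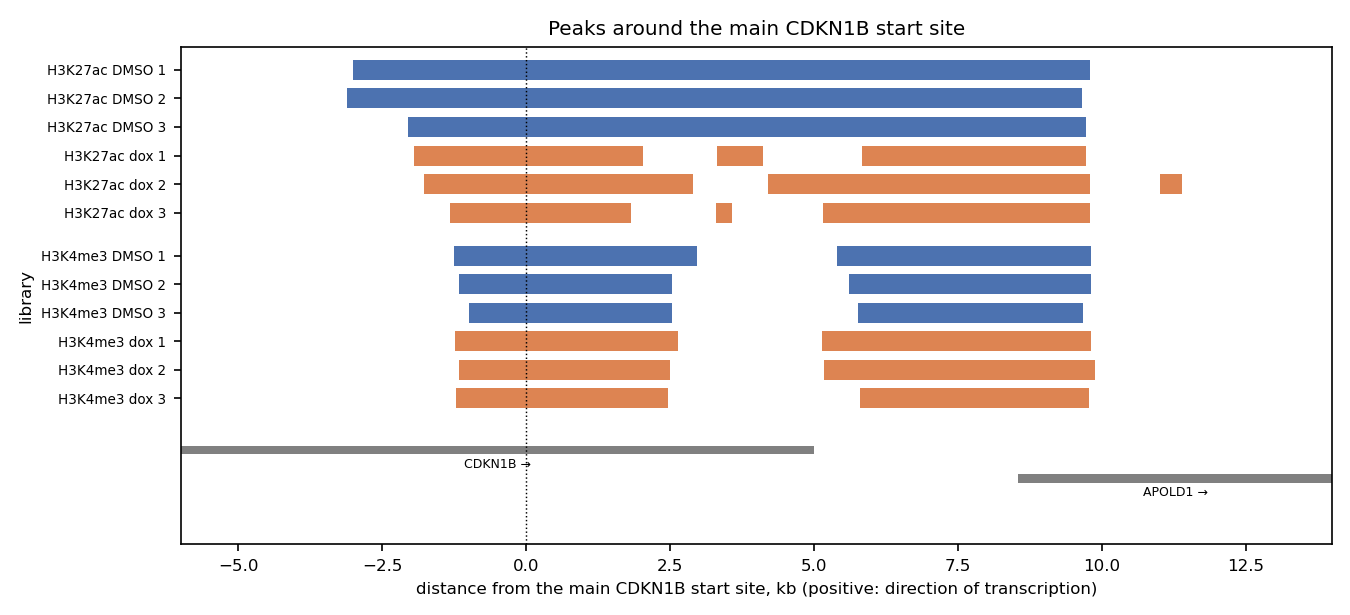
Peaks of H3K27ac and H3K4me3 in each library (rows, blue for DMSO and orange for doxycycline) against the distance in kb from the main CDKN1B start site, positive in the direction of transcription, with genes in grey. The H3K27ac peak is unbroken over 11.8 to 12.8 kb in the DMSO libraries and split in the doxycycline libraries, into 2 peaks in doxycycline 2 and 3 peaks in doxycycline 1 and 3, and H3K4me3 is split in all 6.

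CDKN1C (ENSG00000129757, chr11:2883213-2885775, minus strand), which encodes p57, is an imprinted gene expressed from the maternal copy. Its start site had H3K4me3 and H3K4me2 in all 6 lists but H3K27ac in 1, while H3K27me3 covered 1030, 123 and 665 bp in DMSO and 1108, 0 and 0 bp in doxycycline. The H3K27me3 peaks were called in 2 of the 3 libraries with the long and 2 of the 3 with the short fragment estimate. H3K27ac within 50 kb covered 5.87, 2.87 and 3.42 kb in DMSO and 11.1, 6.49 and 7.98 kb in doxycycline, higher in all 3 doxycycline libraries. The means were 4.05 ± 1.6 kb and 8.54 ± 2.38 kb (SD, n = 3), with a log2 difference of 1.01 (SE 0.28) that limma did not call without a replicate term (unadjusted p = 0.00639, adjusted p = 0.127). With the replicate number as a block, which pairs the H3K27ac libraries, it rose (limma adjusted p = 0.00894), in a fit that called 10.2% of all genes. It also passed with each library centred on its median, at 1.15 (limma adjusted p = 0.0308), where 4.09% of all genes were called. CDKN2D was the other gene with higher extent in every doxycycline library, 2 of 10 beside 3.79% of all genes, and the median of the 10 was 0.08 beside -0.04.

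The acetylation that was longer around CDKN1C lay at KCNQ1, a potassium channel gene of the same imprinted domain. At chr11:2834859-2839796, 43.4 kb from CDKN1C, peaks covered 3578, 733 and 1654 bp in DMSO and 4831, 3593 and 4754 bp in doxycycline. At chr11:2844067-2847553, 35.7 kb away, they covered 1195, 1187 and 1100 bp in DMSO and 2863, 2474 and 2265 bp in doxycycline. Both regions were longer in every doxycycline library. With 10 kb either side of CDKN1C, which leaves these regions out, the log2 difference was 0.27 (limma adjusted p = 0.918). The widest H3K4me3 start-site peak of CDKN1C was 2006, 1973 and 1266 bp in DMSO and 2078, 2019 and 2010 bp in doxycycline. The means were 1.75 ± 0.418 and 2.04 ± 0.0369 kb (SD, n = 3, exact permutation p = 0.1). The lowest doxycycline value lay just above the highest DMSO value. DMSO 3 was the narrowest, and there the region was called as 2 peaks that covered 1818 bp together.

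**Figure D5:**
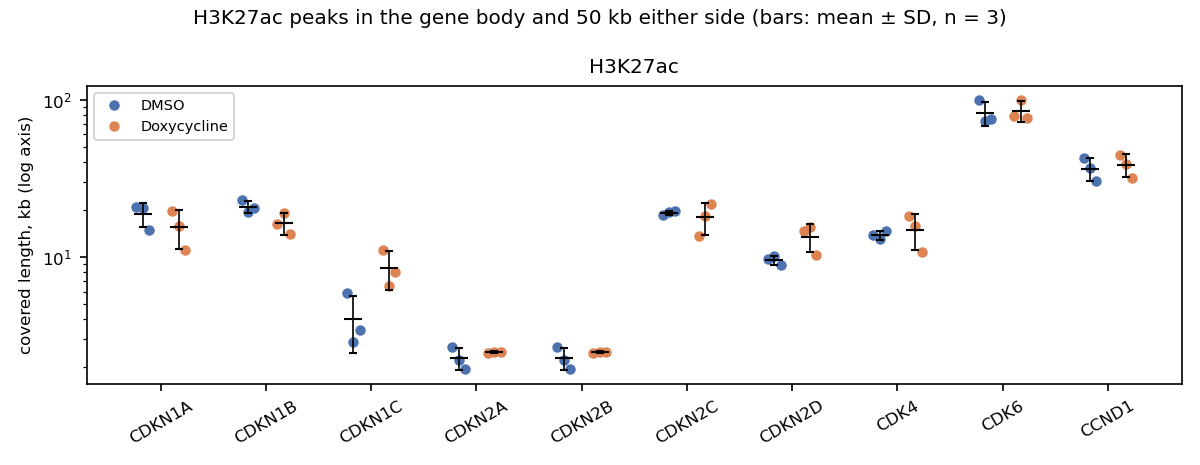
Length in kb covered by H3K27ac peaks in the gene body and 50 kb either side (log axis) for each gene, with 1 point per library and bars for the mean ± SD of 3 libraries. The doxycycline points of CDKN1C and CDKN2D lie above the DMSO points, those of CDKN1B lie below, and CDK6 has the longest coverage at 73.3 to 100.0 kb.

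CCND1 and CDK6 had the widest mean H3K4me3 start-site peaks of the 10 genes in both treatments. CCND1 (ENSG00000110092, chr11:69641156-69654474, plus strand), the D-type cyclin, had an H3K4me3 start-site peak of 9.67, 9.70 and 9.57 kb in DMSO and 10.5, 10.9 and 10.2 kb in doxycycline, at percentile 99.8 of width or above in all 6 lists. All doxycycline libraries were wider (9.65 ± 0.0658 and 10.5 ± 0.352 kb, SD, n = 3, exact permutation p = 0.1, the smallest possible), a ratio of 1.09. CCND1 and CDKN1C were 2 of 10 genes with this order, beside 3.19% of all genes. At CDKN1C the order was narrow, with 2010 bp in doxycycline 3 and 2006 bp in DMSO 1. Within the CCND1 gene body H3K4me3 covered 4419, 4516 and 4397 bp in DMSO and 5906, 5546 and 4812 bp in doxycycline. The added length therefore lay at least in part inside the gene. CCND1 overlaps LTO1, a protein-coding gene. H3K27ac covered the whole of CCND1 in DMSO 1 and in all 3 doxycycline libraries, and 84.4% and 72.5% of it in the other DMSO libraries. The H3K27ac peak at the start measured 24.1, 17.3 and 16.1 kb in DMSO and 24.7, 24.5 and 22.7 kb in doxycycline, and the groups overlapped. The strength of H3K4me3 at CCND1 also overlapped, at 73.6 ± 18.5 and 88.2 ± 7.62 (limma adjusted p = 0.564).

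CDK6 (ENSG00000105810, chr7:92604921-92836573, minus strand) is the longest of the 10 genes, with 231653 bp, and its start window is shared with CDK6-AS1. Its H3K4me3 start-site peak was 8.67, 8.73 and 8.15 kb in DMSO and 8.24, 8.38 and 6.98 kb in doxycycline, at percentile 99.6 of width or above, and the groups overlapped. H3K27ac covered 99.1, 73.3 and 74.9 kb in DMSO and 79.0, 100.0 and 76.0 kb in doxycycline, without a difference that limma called (log2 difference 0.05, SE 0.19, adjusted p = 0.98). H3K4me1 covered 89.4, 55.6 and 65.2 kb in DMSO and 68.1, 43.5 and 54 kb in doxycycline. Each doxycycline library was below the DMSO library of the same number, but the groups overlapped, and limma did not call the log2 difference of -0.34 (SE 0.20, adjusted p = 0.777). With the replicate number as a block, which pairs the H3K4me1 libraries, it fell (limma adjusted p = 0.00475), in a fit that called 16.2% of all genes, 344 higher and 2546 lower. The median log2 difference of H3K4me1 extent over all genes was -0.14, and with each library centred on its median the difference at CDK6 was -0.15.

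CDK4 (ENSG00000135446, chr12:57747727-57756013, minus strand), the kinase whose promoter holds 3 E-boxes, overlaps TSPAN31 and shares its first start window with MARCHF9. Its start-site percentile was 91.3 ± 7.21 in DMSO and 92.7 ± 4.86 in doxycycline for H3K4me3 and 95.1 ± 0.971 and 91.6 ± 4.10 for H3K27ac (SD, n = 3), with overlapping groups for both. Its widest H3K27ac start-site peak varied among libraries of a treatment, at 2.77, 2.83 and 4.0 kb in DMSO and 8.26, 6.89 and 2.14 kb in doxycycline. H3K27me3 met a CDK4 start window in doxycycline 3 alone, at percentile 19 of its list, and covered 5.25 to 7.35 kb within 50 kb, mostly at AGAP2 and CYP27B1.

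By level, the 10 genes formed a loose order of H3K27ac at the start site. CDKN1B and CDKN2C had mean percentiles of 99.5 and 99.1 in DMSO, followed by CCND1 (96.1), CDK6 (95.3), CDK4 (95.1) and CDKN2D (94.5), whose ranges overlapped one another. CDK6 reached 99.2 in DMSO 1 and so overlapped CDKN2C too. CDKN1A stood at 85.3 and CDKN2A at 70.0 in DMSO, without overlap with each other or with the genes above. The margins were thin. The lowest CDKN1A value was 78.5 beside 78.3 at CDKN2A, and the highest was 91.1 beside 91.3 at CDK6. In doxycycline CDKN1A (71.1 to 83.2) and CDKN2A (61.3 to 76.7) overlapped. CDKN2B and all DMSO libraries of CDKN1C had no peak. The H3K4me2 start-site percentile did not separate the 10 genes in this way, with means of 78.5 to 95.7 in DMSO. CDKN2B, which lacked H3K27ac, was at 93.7.

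Beyond the start sites, 4 regions within 50 kb of the genes were called in all 3 DMSO and no doxycycline libraries, and none in the reverse. Such H3K4me1 regions stood near 3 of the 10 genes and near 14.3% of all genes, and such an H3K27ac region near 1 of the 10 and near 11.3%. For H3K4me2, H3K4me3 and H3K27me3 there was none near the 10, beside 1.37%, 2.44% and 0.17% of all genes. The reverse stood near 4.07%, 1.52%, 1.12%, 3.82% and 2.85% of all genes for H3K4me1, H3K4me2, H3K4me3, H3K27ac and H3K27me3. Besides the H3K27ac region of CDKN1B these were H3K4me1 regions 1.64 kb past CDKN1A (chr6:36688974-36690417), at APOLD1 22.5 kb past CDKN1B (chr12:12744862-12745846) and inside CDK6 (chr7:92718186-92720028). The H3K4me1 regions were faint, with a lowest −log10 q of 1.34, 1.27 and 1.80.

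The other genes of the G1 pathway were read as a list of 20, made of D and E cyclins, CDK2, the RB and E2F families with their TFDP partners, SKP2, CKS1B and MDM2 among others. Of these, 17 had H3K4me3 and H3K27ac in all 6 lists and H3K27me3 in none. With all its start windows pooled, CCND2, a D-type cyclin, had H3K4me3 and H3K27me3 in all 6 lists and H3K27ac in none, as CDKN2B did. No gene of the list had start-site calls that separated the treatments. With treatment as the only term and without centring, limma called none in either direction for any mark. Calls of these genes with the replicate block or with centring are not given here. At an unadjusted p under 0.05 stood 7 of the 19 list genes fitted for H3K27ac strength, beside 1644 of 12827 genes in all. The largest strength differences were at TFDP1 for H3K4me1, 44.3 ± 27.7 in DMSO and 69.2 ± 14.3 in doxycycline (limma adjusted p = 0.713), and at CCNE1, the E-type cyclin, for H3K4me3, 99.2 ± 0.761 and 74.8 ± 16.0 (SD, n = 3, limma adjusted p = 0.239). All doxycycline libraries were lower at CCNE1, with a difference of -24.37 percentile points. This order was held by 3 of the 20 list genes and by 9.19% of all genes. The largest extent differences were in H3K27me3 at E2F3 and TFDP1, with log2 differences of 1.03 and 0.78 (limma adjusted p = 0.838 for each), beside a median of 0.49 over all genes.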

How the data were processed

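KELLY cells were compared over 30 peak lists, and 4 inputs entered only through the peak calls. Per the labels and the file headers, the authors aligned reads to hg38 with Bowtie2, filtered them with SAMtools at a mapping quality of 30 and called peaks for each library with MACS2 2.1.1.20160309 against an input. The labels describe single-end and the study's methods paired-end sequencing, and the headers show calls made with paired-end mode off and 101 bp reads. Broad lists (H3K4me1, H3K27ac, H3K27me3) were called at q 0.05 and linked at q 0.1, and narrow lists (H3K4me2, H3K4me3) at p 1e-5. The input of replicate 3 had the read totals of that of replicate 1. Among the deposited columns, the pileup is a coverage signal, −log10 of the p-value and of the q-value come from the caller, and fold enrichment is the ratio of ChIP to local input (means over the peak in broad lists). These depend on depth and input, so they were ranked within a list only.

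Start sites, bodies and neighbours came from GENCODE release 44, and promoter sequences from RefSeq. Measures were the presence of a peak within 1 kb of a start site, its percentile among the peaks of its list, its width, and log2(bases covered + 500) within 50 kb for genes with a mean of at least 1000 bases. limma 3.58.1 with trend (R 4.3.3) was fitted across all protein-coding genes for each mark, with Benjamini-Hochberg adjustment, a threshold of 0.05 and treatment as the only term. It was tested on simulated data with libraries drawn independently, which checks the code and not its use on these libraries. Widths of 1 gene, and percentiles where such a p is given, were tested by an exact permutation of libraries (two-sided, 20 assignments). The permutation treated the libraries as unpaired, so that the pairing by replicate number described below does not enter its p-values. The 10 genes are all named. Some genes of the marker and pathway lists are not reported here by name. Other pathway genes are named as the largest change per measure. Some neighbours are named where they overlap or share a start window. The genes, lists and named widths were chosen with earlier results of these data known.

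Replicate numbers of the labels were checked as pairs by correlating the deviations of same-numbered libraries over genes. Every pair passed 0.1 for H3K4me1, H3K4me2, H3K4me3 and H3K27ac (lowest 0.109, highest 0.602) but not for H3K27me3 (lowest -0.137). Where the replicate block changed a call, its value stands beside it. Alternatives were other peak cutoffs, windows, ranks, pseudocounts, filters, centring, limma without trend and leaving out each library.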

Additional observations from a re-analysis of the deposited data

How the results depend on the processing

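Of 411 alternatives over 31 results, 393 kept the direction and the side of the threshold or stayed within 1.5 times a count. Many of these only set a count of 0 beside a count of 0. For H3K4me1 strength at q 1e-10 and H3K27me3 strength at q 0.001 no gene of the set was left to test. The 393 is therefore no measure of how firm the results are. Limiting peaks to q 0.001 or less left H3K4me1 at the start in all DMSO libraries of 4 genes in place of 7, and H3K27me3 at 0 in place of 3 for DMSO and 0 in place of 2 for doxycycline. At q 1e-10 the 4 counts were 0, and the H3K27me3 strength fit gave no value, with too few genes left. With starts of protein-coding transcripts only, H3K27me3 stood in all doxycycline libraries at 1 gene. Leaving out each library in turn gave 0 to 1 genes whose H3K27me3 calls separated the treatments, the 1 being CDKN1C without doxycycline replicate 1.

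With the replicate block, 1 gene was called for H3K4me1 extent (CDK6) and 1 for H3K27ac extent (CDKN1C, log2 difference 1.01), and centring also called 1 (CDKN1C, 1.15). The block changed no other call at the 10 genes. The H3K27ac extent calls over all genes, 351 in the fit reported, were 1693 with the block (438 higher and 1255 lower), and they were 12 higher and 26 lower without DMSO replicate 1, 6 and 142 without DMSO replicate 2, 11 and 171 without DMSO replicate 3, and 3 and 90 without doxycycline replicate 2. The H3K4me1 extent calls, 6 higher and 8 lower, were 344 and 2546 with the block, 30 and 8 without DMSO replicate 1, 25 and 225 without DMSO replicate 2, 0 and 1 without DMSO replicate 3, 10 and 457 without doxycycline replicate 1, and 5 and 4 without doxycycline replicate 2. The CDKN1A H3K4me3 strength difference reversed to -1.30 by pileup. The CDKN1B H3K27ac width difference of -8.52 kb became -0.47 kb with peaks joined within 2.5 kb or within 5 kb, and ran from -8.90 to -8.14 kb without each library in turn. Single-gene values moved with the setting without reversing, from -8.75 to -0.21 for CDKN1B and from -20.10 to -1.83 for CDKN2D H3K27ac strength, and from 0.27 to 1.92 for CDKN1C H3K27ac extent. The cause was not tested in any of these. The lists give no reads per region, so depth at a gene is unknown, and faint H3K4me1 and H3K27me3 regions lie near the calling threshold.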
